A study of Rattus norvegicus with 6 samples.

Results

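The genes described here encode the proteasome and were taken as every gene symbol that begins with Psm, followed by a letter from a to g and a digit. In the 6 libraries 50 symbols had this form, and 48 of them had a row of their own, out of 30076 named symbols. Psmb5 and Psme3 were listed only in rows shared with neighbouring genes, Psmb10 shared its row in 1 manipulated library, and Psmd9 in 1 untreated library. The filter, an average of 1 FPKM or more, was reached by 42 members with a row of their own throughout, and these were tested among 10657 symbols. Psma8, Psmb8, Psmb11 and Psmc3ip lay below that level. Psmc3ip and Psme3ip1 carry the names of subunits that their products bind and are not proteasome proteins, so 41 of the 42 tested symbols were subunits, activators, an inhibitor or assembly chaperones. Psma3 is listed in the tables as Psma3l.

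The rats were F344 males aged 18 months, an inbred strain. Manual treatment of the head by a Doctor of Osteopathy, known as cranial osteopathic manipulation, was given to 3 rats under 1.5 to 3% isoflurane for 7 days (manipulated libraries 4, 5 and 6), and 3 untreated rats received the anaesthetic without it (untreated libraries 1, 2 and 3). Total RNA came from a coronal section 1 mm thick at the dorsal end of the prefrontal cortex, and each rat gave 1 library. Levels are FPKM, the fragments of a gene scaled by its length and by the fragments of the library, so levels of different genes can be set beside each other.

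The proteasome is the protease of the cytosol and nucleus that degrades proteins marked with ubiquitin. Its 20S core is a barrel of alpha rings, which form the gate, and beta rings, which hold the catalytic sites of Psmb5, Psmb6 and Psmb7. The 19S regulatory particle binds an end of the barrel. It has a base, with a ring of ATPases that unfold the substrate and thread it into the core, and a lid that removes ubiquitin. In cells exposed to interferon gamma, Psmb8, Psmb9 and Psmb10 take the place of the catalytic subunits and give the immunoproteasome, which is scarce in healthy brain and best known there from microglia. Neurons depend on the proteasome for the turnover of synaptic proteins, and its activity has been studied widely in ageing brain.

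Proteasome genes are known to be transcribed together, and the stretch around the gene start is shown for 4 members whose values are described further on. Each sequence runs from 250 bases before to 50 bases after the gene start in RefSeq (build GRCr8), 5′ to 3′ on the strand of the gene. Capitals mark matches on either strand to TGACNNNGC, the core of the antioxidant response element bound by Nfe2l1, a transcription factor that activates proteasome genes, to GAAANNGAA, the core of the interferon-stimulated response element, or to CCAAT, the letters of the CCAAT box. Psmb6 lies at chr10:55737638-55737937 on the plus strand and has 1 match to the antioxidant element. Psmb7 at chr3:42827421-42827720 and Psmd10 at chrX:109453556-109453855, both on the minus strand, have 2 and 3 matches to the CCAAT box. Psmb10 at chr19:50743243-50743542 on the minus strand has 3 matches to the interferon element, of which a pair overlap and are printed as 1 run.
Psmb6: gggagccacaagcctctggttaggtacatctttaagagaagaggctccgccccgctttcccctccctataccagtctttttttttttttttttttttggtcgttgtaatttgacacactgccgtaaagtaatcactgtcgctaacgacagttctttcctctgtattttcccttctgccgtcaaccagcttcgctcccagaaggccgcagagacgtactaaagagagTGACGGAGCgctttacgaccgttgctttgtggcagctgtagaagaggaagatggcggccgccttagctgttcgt
Psmb7: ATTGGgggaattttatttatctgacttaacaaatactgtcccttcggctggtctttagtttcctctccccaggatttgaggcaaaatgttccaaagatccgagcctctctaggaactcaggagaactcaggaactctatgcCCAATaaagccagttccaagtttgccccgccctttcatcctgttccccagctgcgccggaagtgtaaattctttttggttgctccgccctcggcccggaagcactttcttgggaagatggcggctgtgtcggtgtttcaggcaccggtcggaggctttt
Psmd10: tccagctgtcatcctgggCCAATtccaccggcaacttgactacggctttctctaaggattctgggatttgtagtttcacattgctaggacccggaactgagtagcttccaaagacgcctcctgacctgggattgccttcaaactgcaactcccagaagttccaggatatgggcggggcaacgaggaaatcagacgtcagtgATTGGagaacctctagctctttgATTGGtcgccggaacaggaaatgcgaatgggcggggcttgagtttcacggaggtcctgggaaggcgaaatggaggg
Psmb10: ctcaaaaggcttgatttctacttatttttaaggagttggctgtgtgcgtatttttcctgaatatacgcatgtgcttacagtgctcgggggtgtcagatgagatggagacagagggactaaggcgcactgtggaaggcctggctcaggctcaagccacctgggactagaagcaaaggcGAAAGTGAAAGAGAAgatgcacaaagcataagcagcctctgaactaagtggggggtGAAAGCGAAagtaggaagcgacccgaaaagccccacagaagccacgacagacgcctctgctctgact

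RefSeq gave such a stretch for 43 of the 48 members. Psma7, Psmb11, Psmd6, Psmd12 and Psmd14 had no entry. The antioxidant core was found in 7 of the 43, or 16.3%, against 12.1% of all 33469 promoters of the same length. The interferon core was found in 9, or 20.9%, against 9.71% of all promoters, and the CCAAT letters in 22, or 51.2%, against 37.5%. The proteasome stretches held a median of 56.0% G and C and all promoters 51.7%. A match in these letters is a description and not a binding site.

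The libraries differed in level and in the tissue they held. The tested symbols had a median level of 4.01, 4.07 and 2.75 FPKM in manipulated 4, 5 and 6, and of 5.50, 3.98 and 5.17 FPKM in untreated 1, 2 and 3. Manipulated 6 thus stood below the other 5 libraries. The tissue was labelled prefrontal cortex, and genes of cortical excitatory neurons were present in all libraries. Their summed levels were 210 to 368 FPKM in manipulated and 248 to 309 FPKM in untreated libraries. Of 6 tested of 7 listed, 3 were lower and 3 higher in manipulated rats. By limma 2 of the lower ones had an unadjusted p under 0.05, against 13.6% of all tested symbols. With the median-ratio scaling described below, 3 of the 6 did in either direction, against 11.3% of all symbols. None passed the adjusted p under either scaling. Among genes of other regions, the sums for thalamic and hypothalamic neurons and for striatal neurons did not overlap between the groups. The sums for the choroid plexus did. Genes of thalamic and hypothalamic neurons were lower in manipulated rats in 10 of 10 tested of 11 listed, 7 of which fell (limma with Benjamini-Hochberg adjustment, adjusted p under 0.05), with summed levels of 19.05 to 28.2 FPKM in manipulated and 125 to 172 FPKM in untreated libraries. Pmch, which in this list marks the hypothalamic neurons that make melanin-concentrating hormone, was at 0 in manipulated 6. Genes of striatal neurons summed to 77.4 to 199 FPKM in manipulated and 45.2 to 69.3 FPKM in untreated libraries, with 9 of 9 tested of 10 listed higher, 8 of them with an unadjusted p under 0.05, as in 1.46% of all tested symbols, and 0 past the test as deposited. After median-ratio scaling, described below, 1 of the 9 passed, as did 31 of all tested symbols. All 9 then had an unadjusted p under 0.05, against 11.3% of all symbols in either direction. Genes of the choroid plexus summed to 239, 1237 and 1002 FPKM in manipulated 4, 5 and 6. Untreated libraries had 459 to 467 FPKM, so manipulated 4 lay below them. In mean, 6 of 6 tested of 8 listed were higher, 3 of them with an unadjusted p under 0.05 and 0 past the test. The groups were apart in 0 of them. Kcnj13 was at 0 in manipulated 4 and in all 3 untreated libraries. Genes of microglia, the cells best known for the immunoproteasome, were lower in 9 of 9 tested of 10 listed, where 87.0% of all tested symbols were lower. An unadjusted p under 0.05 was seen in 0 of them. Their sums were 70.7 to 114 FPKM in manipulated and 105 to 145 FPKM in untreated libraries. Genes of astrocytes were lower in 4 of 5 tested of 7 listed, 2 of them with an unadjusted p under 0.05, and after scaling in 3. Those of oligodendrocytes were lower in 6 of 6 tested of 7 listed, and after scaling in 1. Those of endothelium and mural cells were lower in 2 of 5 tested of 8 listed, and after scaling in 1, when 2 had an unadjusted p under 0.05. No gene of these cell types passed the test. The part of all these lists in the proteasome values was not tested.

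No proteasome gene passed the test between manipulated and untreated rats. By limma with Benjamini-Hochberg adjustment over all 10657 symbols, 0 of 42 members had an adjusted p under 0.05, against 38 symbols, or 0.357%, of all tested, of which 9 rose and 29 fell. The smallest adjusted p of a member was 0.309. An unadjusted p under 0.05 with a lower level in manipulated rats was seen in 6 members, which is 14.3% of them and close to the 13.6% of all tested symbols.

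All 42 members had a lower mean on the log2(FPKM + 1) scale in manipulated rats, with log2 fold changes from -1.36 to -0.03 and a median of -0.60. On this scale the change of a low gene is understated. Most other genes were lower as well: over all tested symbols the median was -0.36, and 9271 symbols, or 87.0%, lay below 0. The libraries were therefore also brought to a common level by median-ratio scaling, which divides each library by the median ratio of its genes to their geometric mean over libraries. After it the median of all tested symbols was -0.00, that of the members was -0.18, and 36 of 42 members stayed below 0, or 85.7%, against 50.7% of all symbols. The 6 that turned positive were Psmb6, Psmc2, Psmd3, Psmd5, Psmb2 and Psmg4. In bulk tissue, fewer cells of a type and less RNA per cell cannot be told apart.

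In 13 of the 42 members the 3 manipulated libraries all lay below the 3 untreated ones. This is 31.0% of the members, and 23.7% of all tested symbols did the same. With median-ratio scaling 4 members separated in this way, Psma1, Psmc1, Psmd10 and Psme2, a share of 9.52% that is near the 9.85% of all symbols. On that scale 1 member, Psme2, had an unadjusted p under 0.05, or 2.38%, while 11.3% of all symbols did in either direction. When limma was given a weight for each library, 3 of the 42 members passed, as did 940 symbols, or 8.82% of all tested. They were Psmd10, Psme1 and Psme2, with adjusted p of 0.0428, 0.0479 and 0.0414 in this order. As deposited the groups overlapped for Psmd10 and Psme1, and the value of Psme1 in untreated 2 has a deposited interval of 0 to 45.6 FPKM.

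**Figure D1:**
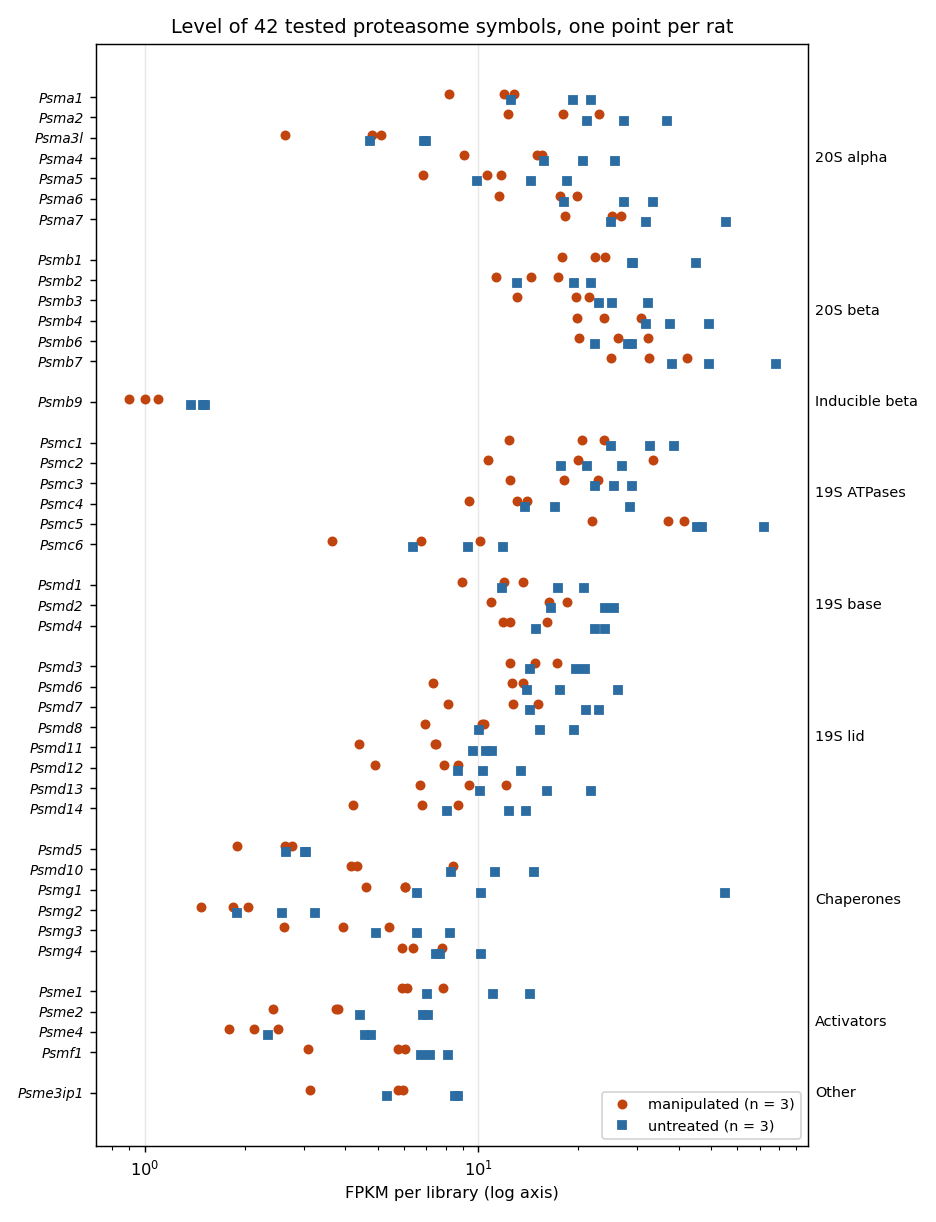
FPKM of the 42 tested symbols on a log axis, ordered by role, with a circle for each manipulated rat and a square for each untreated rat. Manipulated rats lie towards the left of untreated rats in most rows and the groups overlap in 29 of them, and the lone square at the right of the Psmg1 row is untreated 1 at 54.9 FPKM.

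**Figure D2:**
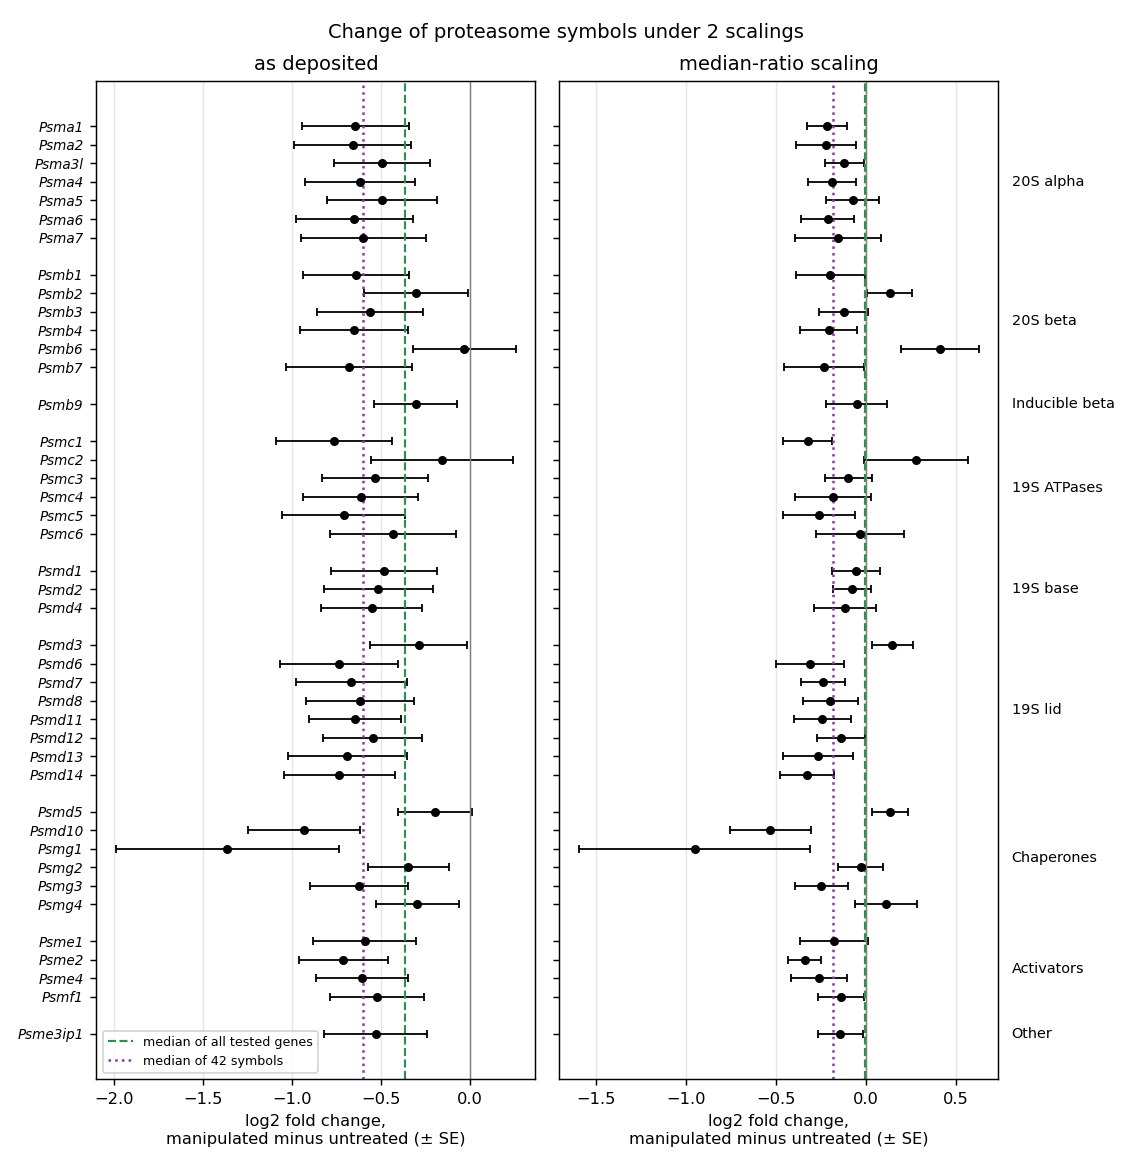
Log2 fold changes of log2(FPKM + 1), manipulated minus untreated, with their standard errors, as deposited and after median-ratio scaling. The dotted line at -0.60 and the dashed line at -0.36 are the medians of the members and of all tested symbols as deposited. After scaling the lines stand at -0.18 and -0.00.

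The members followed the libraries closely. As deposited, manipulated 6 held the lowest value of 40 of the 42 members, or 95.2%, and untreated 3 the highest of 34, or 81.0%. Over all tested symbols these libraries were lowest in 73.4% and highest in 33.7%. After median-ratio scaling untreated 3 was still the highest library for 28 members, or 66.7%, against 22.4% of all symbols.

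Much of the difference left after scaling went with untreated 3. With that library left out, the median log2 fold change of the members was -0.07 with median-ratio scaling and 30 of the 42 were below 0. Leaving out any other single library gave scaled medians from -0.23 to -0.17. As deposited, the median was -0.43 without untreated 3 or without manipulated 6, and -0.77 without untreated 2. Many groups overlapped through untreated 2. As deposited and without it, 38 of 42 members separated, or 90.5%, against 57.7% of all tested symbols. Without manipulated 5 it was 28 members, or 66.7%, against 41.0%. The count was 16 without manipulated 4, and 13 without manipulated 6, untreated 1 or untreated 3. After median-ratio scaling the counts ran from 4 to 13, with 12 without untreated 2 and 13 without manipulated 5. The shares of all symbols in these further settings were not determined. Groups separate more easily once a library is left out, so these counts cannot be set beside those from all libraries. No member had an adjusted p under 0.05 by limma when any 1 library was left out.

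**Figure D3:**
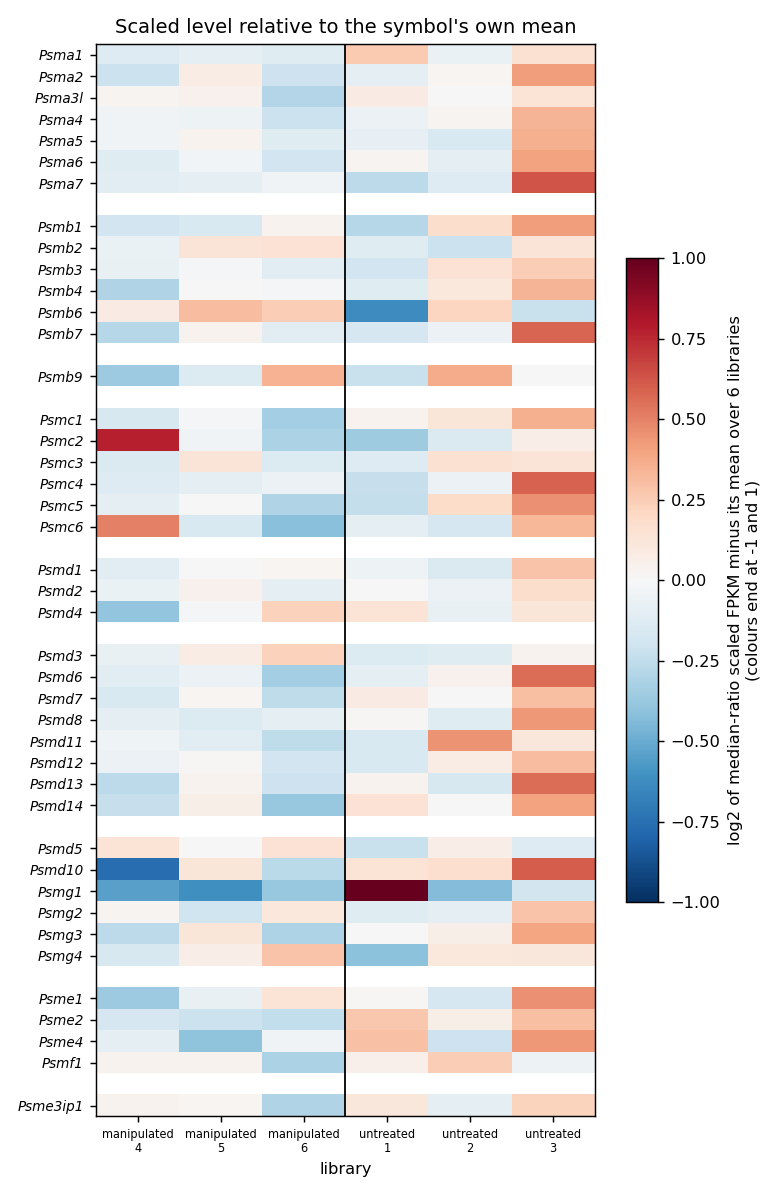
Level of each tested symbol in each library after median-ratio scaling, as log2 relative to its mean over the 6 libraries, with the manipulated libraries left of the line. The untreated 3 column is red in most rows, and the darkest single cells are Psmg1 in untreated 1, Psmc2 in manipulated 4 and Psmd10 in manipulated 4.

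The alpha ring had 7 tested genes, all of them with a lower mean in manipulated rats under both scalings. Their median log2 fold change was -0.62 as deposited and -0.19 with median-ratio scaling. Psma7 was the highest of them and had 25.2, 26.8 and 18.2 FPKM in manipulated rats, against 31.8, 25.1 and 55.6 FPKM in untreated rats. The groups overlapped, and untreated 3 stood well above the other libraries. Psma1 had 11.9, 12.8 and 8.20 FPKM in manipulated rats, against 21.8, 12.6 and 19.2 FPKM in untreated rats. It separated the groups only after scaling, with a scaled log2 fold change of -0.22. The other alpha genes, Psma2, Psma3l, Psma4, Psma5 and Psma6, ranged from 2.64 to 23.0 FPKM in manipulated and from 4.75 to 36.9 FPKM in untreated rats. Psma8, the alpha subunit of the testis, was listed at 0.00765 to 0.00971 FPKM in manipulated and at 0 to 0.00932 FPKM in untreated rats and was not tested.

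Among the constitutive beta subunits the catalytic pair Psmb6 and Psmb7 had unlike values. Psmb6 carries the caspase-like activity, and Psmb7 the trypsin-like activity. Psmb6 (chromosome 10, 57131316 to 57133775, Rnor_6.0) had 26.3, 32.3 and 20.1 FPKM in manipulated rats, against 22.5, 29.0 and 28.1 FPKM in untreated rats. The groups overlapped fully, with means of 26.2 ± 6.10 FPKM in manipulated and 26.5 ± 3.54 FPKM in untreated rats (SD, n = 3 each). Its log2 fold change of -0.03 (SE 0.29, limma adjusted p = 0.943) was the closest to 0 of all members, and it was 0.41 with median-ratio scaling.

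Psmb7 (chromosome 3, 22871105 to 22952063), the member with the highest mean level, had 32.5, 42.5 and 25.1 FPKM in manipulated rats, against 49.2, 38.3 and 78.2 FPKM in untreated rats. Manipulated 5 exceeded untreated 2, so the groups overlapped. The means were 33.3 ± 8.74 FPKM in manipulated and 55.2 ± 20.6 FPKM in untreated rats (SD, n = 3 each), a log2 fold change of -0.68 (SE 0.35, limma adjusted p = 0.333), or -0.23 with scaling. Within a library the level of Psmb6 was 81.1%, 76.0% and 80.2% of that of Psmb7 in manipulated rats and 45.7%, 75.7% and 35.9% in untreated rats. The ratios of the groups did not overlap, though manipulated 5 and untreated 2 nearly met, and the ratio does not depend on the scaling of a library.

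Psmb5, the chymotrypsin-like subunit, shared its row with AC109100.1 in every library, so its own level is not known. The joint row had 22.8, 28.2 and 18.2 FPKM in manipulated rats, against 31.1, 21.3 and 44.4 FPKM in untreated rats, with overlap. The other beta subunits have no catalytic site of their own. Psmb1, Psmb3 and Psmb4 separated the groups as deposited and overlapped after scaling. Psmb1 and Psmb3 had 13.1 to 24.1 FPKM in manipulated and 23.0 to 45.1 FPKM in untreated rats. Psmb4, the highest of them, had 23.9, 30.8 and 19.8 FPKM in manipulated rats, against 37.7, 32.0 and 49.1 FPKM in untreated rats. Psmb2 had 14.4, 17.3 and 11.4 FPKM in manipulated rats, against 19.3, 13.0 and 21.8 FPKM in untreated rats. The groups overlapped, and the log2 fold change was -0.30 as deposited and 0.13 with scaling. Over the 6 tested beta genes the median was -0.60, and -0.16 with scaling, when 4 of the 6 were below 0.

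The inducible subunits of the immunoproteasome had lower levels than any tested constitutive beta subunit in every library where they had a row of their own. Psmb9 (chromosome 20, 3973404 to 3978845), which replaces Psmb6, had 0.895, 1.10 and 1.00 FPKM in manipulated rats, against 1.38, 1.49 and 1.52 FPKM in untreated rats. The values of the groups did not overlap, and Psmb9 had the smallest spread within groups of any tested member. At this low level the deposited intervals were wide and overlapped between groups. They were 0.752 to 1.44 FPKM in manipulated 5 and 0.930 to 1.82 FPKM in untreated 1. Means were 0.997 FPKM in manipulated and 1.46 FPKM in untreated rats (n = 3 each), a log2 fold change of -0.30 (SE 0.24, limma adjusted p = 0.415), or -0.05 with scaling, when the groups overlapped. Relative to Psmb6 the level of Psmb9 was 3.40%, 3.39% and 4.98% in manipulated rats and 6.12%, 5.16% and 5.41% in untreated rats. Those shares did not overlap between the groups. Of the 9 microglial genes tested, all were lower as deposited, against 87.0% of all tested symbols, and 6 with scaling, against 50.7%.

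Psmb8 (chromosome 20, 3990282 to 3993769), which replaces Psmb5, lay below the filter. It had 0.613, 0.793 and 0.484 FPKM in manipulated rats, against 1.16, 0.825 and 1.21 FPKM in untreated rats, and these values did not overlap. The nearest values, of manipulated 5 and untreated 2, had deposited intervals of 0.277 to 1.31 and 0.367 to 1.28 FPKM, which overlapped widely. Relative to the row shared by Psmb5 the level of Psmb8 was 2.69%, 2.81% and 2.66% in manipulated rats and 3.73%, 3.87% and 2.72% in untreated rats, and there manipulated 5 exceeded untreated 3. Psmb10 (chromosome 19, 37909267 to 37912027 over the rows of its own), which replaces Psmb7, had 6.16 and 4.21 FPKM in manipulated 5 and 6, against 4.86, 3.73 and 7.47 FPKM in untreated rats. In manipulated 4 it shared a row with Ctrl at 4.57 FPKM. The values overlapped, and Psmb10 stood above both other inducible genes in every library where it had a row of its own. Psmb11, the beta subunit of the thymus, was at 0.0399 to 0.177 FPKM in manipulated and 0.0486 to 0.221 FPKM in untreated rats.

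**Figure D4:**
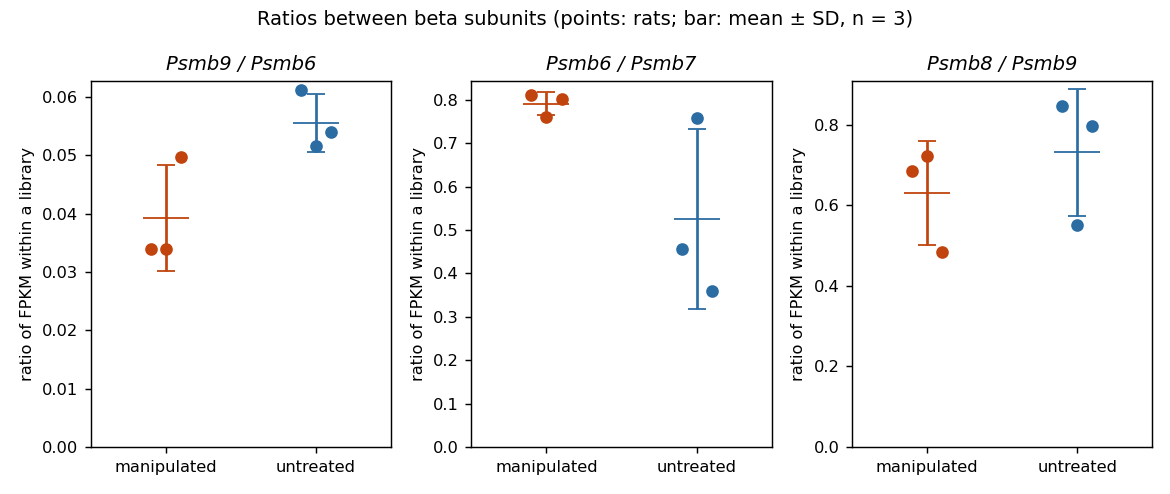
Ratios of FPKM within a library for pairs of beta subunits, with a point for each rat and bars for mean and SD (n = 3). Psmb9 over Psmb6 is 0.0339 to 0.0498 in manipulated and 0.0516 to 0.0612 in untreated rats, Psmb6 over Psmb7 is 0.760 to 0.811 in manipulated and 0.359 to 0.757 in untreated rats, and Psmb8 over Psmb9 overlaps.

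The base of the 19S particle is built on the ATPases Psmc1 to Psmc6. All 6 had a lower mean in manipulated rats as deposited, and 5 of them with scaling. The highest was Psmc5 (chromosome 10, 94445877 to 94451811), with 37.2, 41.6 and 22.0 FPKM in manipulated rats, against 47.1, 45.5 and 72.1 FPKM in untreated rats. The groups did not overlap as deposited and did so after scaling. It had a log2 fold change of -0.71 (SE 0.35, limma adjusted p = 0.328), or -0.26 with scaling.

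Psmc1 (chromosome 6, 124123228 to 124135658), which helps to open the gate of the core, had 20.5, 23.9 and 12.4 FPKM in manipulated rats, against 32.8, 25.03 and 38.7 FPKM in untreated rats. The groups were apart both as deposited and with scaling. This gave a log2 fold change of -0.76 (SE 0.33, unadjusted p = 0.0443, limma adjusted p = 0.326), or -0.33 with scaling.

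Psmc2 (chromosome 4, 9867101 to 9881484) did not follow its neighbours in the ring. It had 33.4, 19.97 and 10.7 FPKM in manipulated rats, against 21.2, 17.7 and 27.0 FPKM in untreated rats. Manipulated 4 was the highest of all 6 libraries and manipulated 6 the lowest, and the deposited interval of the value in manipulated 4, 29.6 to 37.3 FPKM, lay above every other library's level. The log2 fold change was -0.16 (SE 0.40, limma adjusted p = 0.791), and -0.53 without manipulated 4. Relative to Psmc1 the level of Psmc2 was 163%, 83.7% and 86.4% in manipulated rats and 64.7%, 70.9% and 69.7% in untreated rats, without overlap also when manipulated 4 is set aside. Psmc6 was likewise high in manipulated 4, with 10.1, 6.75 and 3.65 FPKM in manipulated rats, against 9.30, 6.39 and 11.9 FPKM in untreated rats. Its row covered 10.4 times as many bases in manipulated 4 as in the library with the shortest row, and whether that entered the value was not tested. Psmc3 and Psmc4 had 9.42 to 23.0 FPKM in manipulated and 13.9 to 28.9 FPKM in untreated rats, with overlap.

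The non-ATPases of the base, the scaffolds Psmd1 and Psmd2 and the ubiquitin receptor Psmd4, had 8.94 to 18.5 FPKM in manipulated and 11.8 to 25.5 FPKM in untreated rats. All 3 overlapped between groups, with a median log2 fold change of -0.51, or -0.08 with scaling. Psmd4 had 11.9, 16.1 and 12.5 FPKM in manipulated rats, against 24.0, 14.9 and 22.4 FPKM in untreated rats. Here untreated 2 stood below manipulated 5, the order seen in much of the family.

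The lid had 8 tested genes with a median log2 fold change of -0.65, or -0.24 with scaling, when 7 of the 8 were below 0. Psmd14 (chromosome 3, 47578384 to 47673338), the deubiquitinase that cuts the chain from the substrate, had 6.80, 8.72 and 4.20 FPKM in manipulated rats, against 12.4, 8.06 and 14.0 FPKM in untreated rats. Manipulated 5 exceeded untreated 2. A log2 fold change of -0.73 resulted (SE 0.31, unadjusted p = 0.0428, limma adjusted p = 0.326), or -0.33 with scaling.

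Psmd11 (chromosome 10, 67810624 to 67858414), a lid scaffold, had 7.44, 7.49 and 4.40 FPKM in manipulated rats, against 9.63, 10.6 and 11.0 FPKM in untreated rats. The groups did not overlap as deposited, and the untreated libraries varied little, but they overlapped with scaling. Psmd11 had a log2 fold change of -0.64 (SE 0.26, unadjusted p = 0.0340, limma adjusted p = 0.326), or -0.24 with scaling. Psmd6 (chromosome 15, 12407524 to 12416263), another scaffold, had 12.6, 13.7 and 7.31 FPKM in manipulated rats, against 17.6, 14.0 and 26.3 FPKM in untreated rats. It was apart as deposited and overlapped with scaling, with log2 fold changes of -0.73 (SE 0.33, limma adjusted p = 0.326) and -0.31. The structural subunits Psmd7, Psmd8, Psmd12 and Psmd13 had 4.92 to 15.1 FPKM in manipulated and 8.73 to 23.1 FPKM in untreated rats, and of these Psmd12 alone was apart as deposited.

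Psmd3 (chromosome 10, 86599220 to 86611188) was the lid gene nearest to 0. It had 14.8, 17.2 and 12.4 FPKM in manipulated rats, against 19.7, 14.4 and 21.0 FPKM in untreated rats, a log2 fold change of -0.29 (SE 0.27, limma adjusted p = 0.491), or 0.15 with scaling. The groups overlapped. When each gene is set against the median constitutive subunit of its own library, Psmd3 was higher in all 3 manipulated than in all 3 untreated rats, by 0.23 in log2 on average. Psmb2 was the other such gene, by 0.21. Psmd10, Psme2, Psmc1, Psmd14 and Psma6 lay lower in this measure, without overlap. These are 4.76% of the members higher, against 8.75% of all tested symbols set against the same median, and 11.9% lower, against 5.49%. The median was formed from subunits that are members themselves, and no test was run.

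The sums over the 2 particles had like ratios between the groups. The 20S core, without Psmb5, summed to 242, 284 and 176 FPKM in manipulated rats, against 334, 272 and 451 FPKM in untreated rats. The 19S particle summed to 255, 271 and 158 FPKM in manipulated rats, against 341, 265 and 426 FPKM in untreated rats. Both overlapped between groups, through manipulated 5 and untreated 2. The mean over manipulated rats was 0.665 of that over untreated rats for the core and 0.663 for the 19S particle. The ratio of 19S to 20S sums was 1.05, 0.955 and 0.897 in manipulated rats, against 1.02, 0.973 and 0.945 in untreated rats. Those ratios overlapped, with means of 0.968 ± 0.0776 in manipulated and 0.980 ± 0.0388 in untreated rats (SD, n = 3 each). Of 9 ratios formed within libraries, the groups were apart in 3, those of Psmb9 to Psmb6, Psmb6 to Psmb7 and Psmc2 to Psmc1, and no test was run on them. Psmb6 enters 2 of these 3, so those 2 are not separate observations. The ratios were chosen with earlier results of these data known, and the share of other gene pairs that separate was not determined.

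**Figure D5:**
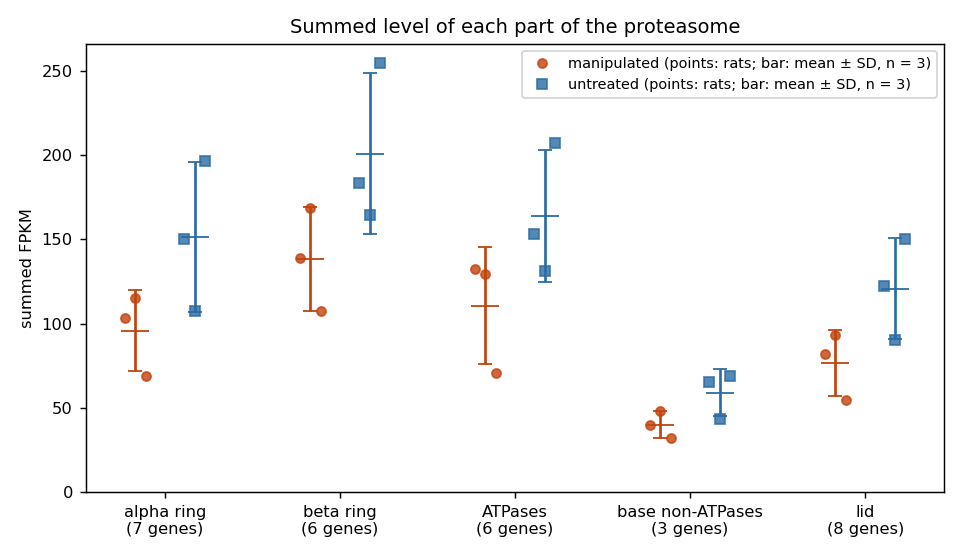
Summed FPKM of the 2 rings of the core and the 3 parts of the 19S particle in each rat, with mean and SD (n = 3). Manipulated rats lie left of untreated rats, their means stand at 0.632 to 0.689 of the untreated means, and the groups overlap in all 5 parts.

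Activators other than the 19S particle open the core without ATP. Psme1 and Psme2 form the 11S activator that interferon induces together with the immunoproteasome. Psme2 (chromosome 15, 34265557 to 34270519) had 3.75, 3.81 and 2.42 FPKM in manipulated rats, against 7.07, 4.42 and 6.83 FPKM in untreated rats. The groups were apart as deposited and with scaling. The means were 3.32 ± 0.784 FPKM in manipulated and 6.11 ± 1.47 FPKM in untreated rats (SD, n = 3 each), a log2 fold change of -0.71 (SE 0.25, unadjusted p = 0.0190, limma adjusted p = 0.321), or -0.34 with scaling (unadjusted p = 0.00976, limma adjusted p = 0.274).

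Its partner Psme1 had 6.12, 7.83 and 5.91 FPKM in manipulated rats, against 11.1, 7.03 and 14.3 FPKM in untreated rats. The groups overlapped, and the value of untreated 2 has a deposited interval of 0 to 45.6 FPKM, the widest of the family relative to its level. Psme4, an activator of the nucleus, had 2.51, 2.13 and 1.79 FPKM in manipulated rats, against 4.60, 2.34 and 4.78 FPKM in untreated rats, a log2 fold change of -0.60 (SE 0.26, unadjusted p = 0.0447, limma adjusted p = 0.326). Manipulated 4 exceeded untreated 2. Psmf1, an inhibitor of the core, had 5.77, 6.04 and 3.09 FPKM in manipulated rats, against 8.14, 6.72 and 7.17 FPKM in untreated rats, apart as deposited and not with scaling. Psme3, a further nuclear activator, was seen only in a row joined with AC123346.1, Aoc3 and G6pc, at 14.0 to 20.1 FPKM in manipulated and 18.8 to 24.2 FPKM in untreated rats.

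Assembly chaperones bind precursors of the particle and leave it once it is complete. Psmd10 (chromosome X, 112323109 to 112328678), a chaperone of the 19S base also known as gankyrin, had the smallest unadjusted p of the family as deposited. It had 4.33, 8.40 and 4.16 FPKM in manipulated rats, against 11.3, 8.30 and 14.7 FPKM in untreated rats. Manipulated 5 lay just above untreated 2. With scaling the groups were narrowly apart, with 8.39 in manipulated 5 against 8.47 in untreated 1. The deposited intervals of Psmd10 in these libraries extended 20.5% and 16.5% to either side of the level, far more than that gap. Means were 5.63 ± 2.40 FPKM in manipulated and 11.4 ± 3.22 FPKM in untreated rats (SD, n = 3 each), a log2 fold change of -0.93 (SE 0.32, unadjusted p = 0.0158, limma adjusted p = 0.309), or -0.53 with scaling (unadjusted p = 0.0564, limma adjusted p = 0.442).

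Psmg1 (chromosome 11, 36327800 to 36337383), which helps to build the alpha ring, had the most negative log2 fold change and the widest spread within groups. It had 6.03, 6.05 and 4.62 FPKM in manipulated rats, against 54.9, 6.56 and 10.2 FPKM in untreated rats. The groups did not overlap, but untreated 1 alone was far above the rest, with a deposited interval of 44.0 to 65.8 FPKM. The log2 fold change was -1.36 (SE 0.63, limma adjusted p = 0.326), and -0.50 without untreated 1. With scaling the groups overlapped, and the values were -0.95 with all libraries and -0.18 without untreated 1.

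Psmg2 (chromosome 18, 63394900 to 63409694), the partner of Psmg1, did not share that value. It had 2.05, 1.84 and 1.48 FPKM in manipulated rats, against 2.58, 1.89 and 3.23 FPKM in untreated rats, with overlap and a log2 fold change of -0.34 (SE 0.23, limma adjusted p = 0.376), or -0.03 with scaling. Psmd5 (chromosome 3, 13914967 to 13934189), a chaperone of the 19S base, was among the steadiest members. It had 2.77, 2.63 and 1.90 FPKM in manipulated rats, against 3.02, 2.66 and 3.05 FPKM in untreated rats, a log2 fold change of -0.19 (SE 0.21, limma adjusted p = 0.531), or 0.13 with scaling. Psmg3 and Psmg4, which act in building the rings of the core, had 2.61 to 7.81 FPKM in manipulated and 4.96 to 10.2 FPKM in untreated rats, with overlap. Psmd9, a further base chaperone, had 3.26, 5.64 and 2.55 FPKM in manipulated rats, against 5.08 and 6.93 FPKM in untreated 1 and 3, and shared its row with Wdr66 in untreated 2 at 5.99 FPKM.

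The remaining 2 members are not proteasome proteins. Psme3ip1 had 5.75, 5.97 and 3.13 FPKM in manipulated rats, against 8.50, 5.33 and 8.68 FPKM in untreated rats, with overlap and a limma adjusted p of 0.334. Psmc3ip, whose product acts in meiotic recombination, was listed at 0, 1.86 and 1.32 FPKM in manipulated rats, against 0.607, 1.69 and 0 FPKM in untreated rats, and was not tested.

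Genes that work with the proteasome were read from the same fit, in lists set beside the family. None of their members passed the test by limma, and 2 did when each library was given a weight. An unadjusted p under 0.05, with a lower level in manipulated rats each time, was seen in 1 of the proteasome-associated proteins without a Psm name, in 5 of the ubiquitin genes and their enzymes, and in 0 of the other 3 lists, against 13.6% of all tested symbols. With median-ratio scaling this changed. No gene of the ubiquitin list then had an unadjusted p under 0.05, against 11.3% of all symbols. In the list of proteasome-associated proteins 2 genes did, Ubqln2 and Ddi2, and in the control list 3, Ddi2, Maf and Foxo4. Ddi2 is in both lists. All of them had a higher level in manipulated rats, and none was past the adjusted p. Of proteasome-associated proteins without a Psm name, such as the deubiquitinases of the 19S particle and shuttle receptors, 17 of 21 listed were tested. In this list 15 were lower as deposited and 8 with scaling, with medians of -0.35 and 0.05. Uchl5, a deubiquitinase bound to the base, had 0, 4.70 and 1.85 FPKM in manipulated rats, against 6.92, 3.12 and 6.10 FPKM in untreated rats, with overlap and a limma adjusted p of 0.326. Akirin2, which brings proteasomes into the nucleus, had 11.0, 11.5 and 7.93 FPKM in manipulated rats, against 26.4, 10.2 and 21.7 FPKM in untreated rats, with overlap and the same adjusted p.

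Of genes that control transcription of proteasome genes, 12 of 14 listed were tested, and 9 were lower as deposited and 6 with scaling. Nfe2l1, the factor that raises proteasome transcription when the protease is inhibited, had 21.6, 25.3 and 14.1 FPKM in manipulated rats, against 28.2, 20.8 and 40.0 FPKM in untreated rats. The groups overlapped and untreated 3 was the highest library, as for most subunits, with a log2 fold change of -0.51 (limma adjusted p = 0.374), or -0.07 with scaling. The smallest p values of the list were those of Ngly1, the enzyme that removes sugars from Nfe2l1, and Stat3. Their log2 fold changes were -0.53 and -0.46, with limma adjusted p of 0.332 and 0.333.

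Ubiquitin genes and the enzymes that activate and carry ubiquitin had 18 of 20 listed tested. All 18 were lower as deposited and 13 with scaling, with medians of -0.53 and -0.12. Ube2e1, an enzyme that carries ubiquitin, had 12.4, 14.6 and 8.60 FPKM in manipulated rats, against 17.4, 32.5 and 29.4 FPKM in untreated rats. The groups did not overlap as deposited and did so with scaling, with log2 fold changes of -1.07 (limma adjusted p = 0.309) and -0.65. Ube2b, an enzyme of the same class, had 6.39, 6.71 and 3.48 FPKM in manipulated rats, against 17.1, 6.20 and 16.3 FPKM in untreated rats, with overlap and a log2 fold change of -1.05 (limma adjusted p = 0.324), or -0.64 with scaling.

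Genes of interferon signalling and antigen presentation, which supply the setting in which the immunoproteasome acts, had 8 of 13 listed tested. In this list 7 were lower as deposited and 3 with scaling, with medians of -0.30 and 0.05. Cd74, the invariant chain of class II molecules, had 3.76, 6.67 and 5.52 FPKM in manipulated rats, against 8.39, 7.74 and 6.71 FPKM in untreated rats, without overlap as deposited but with overlap after scaling, and with a limma adjusted p of 0.333. Erap1, which trims the peptides that the proteasome releases, had a log2 fold change of -0.36 (limma adjusted p = 0.368). The chaperonin CCT, another large complex of the cytosol, had 5 of 8 listed tested, all 5 lower under both scalings, with medians of -0.65 and -0.22. Cct4 and Cct5 had the smallest p values in it, with log2 fold changes of -0.66 and -0.70 and a limma adjusted p of 0.326 each.

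The median SD of log2(FPKM + 1) within groups was 0.357 for the 42 members and 0.316 for all tested symbols as deposited, and 0.189 and 0.199 with scaling. The deposited interval of a member in a library extended to a median of 7.86% above its level over 252 values, and 234 of them stayed within 20%. RefSeq lists 48 pseudogenes under names of this family, up to 8 for 1 gene, so that fragments of near-identical copies may have been split among rows, and reads of antisense transcripts cannot be told apart where the strand is not known.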

How the data were processed

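RNA libraries from 3 manipulated and 3 untreated rats were used, grouped by the treatment label. The authors deposited FPKM values with an interval and a status per locus, for which the submitters' processing notes name STAR 2.7.3a, Cufflinks and the genome build Rnor_6.0. A version of Cufflinks is not given in the sources used here. The annotation release, strandedness and read totals are likewise missing from those sources, so depth is unknown. The deposited intervals give the precision of single values and are not a measure of depth. FPKM is relative within a library, so an abundant transcript lowers all others. Loci that the assembly joined share a row and could not be divided.

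FPKM was summed per symbol and library. Of 30076 symbols, 3254 that shared a row in any library, 190 at several places, 35 missing from a library and 7 with a failed estimate were left out, which kept 26641, and 10657 with a mean of at least 1 FPKM were tested. The test was limma 3.58.1 in R 4.3.3 on log2(FPKM + 1), two-sided, with a mean-variance trend, no covariate, and Benjamini-Hochberg adjustment at 0.05 over all tested symbols. It was tested on simulated data first. Particle sums and ratios were not tested. Each rat gave 1 library, so the spread holds animal and technical variation together. Summaries used pandas 2.3.3 and numpy 2.4.6 under Python 3.11.15, and plots matplotlib 3.10.9. RefSeq tables of build GRCr8 gave promoter sequences, synonyms and pseudogenes, and coordinates of rows are those of Rnor_6.0, counted from 1.

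The members, lists and ratios were chosen with earlier results of these data known. Genes described in full were the catalytic and inducible beta subunits, the 4 most and 4 least negative log2 fold changes, the 4 smallest p values, the 2 highest and 2 lowest levels, the 2 widest and 2 narrowest spreads, and the 2 smallest p values of each partner list. Others are named as members of their group. Alternatives covered the pseudocount, filter, scaling, variance model, library weights, shared rows and leaving out each library. Scaling combined with shared rows or with a library left out was added after the data were seen.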

Additional observations from a re-analysis of the deposited data

How the results depend on the processing

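The tables hold no counts, so precision could be read only from the deposited intervals, which were widest relative to the level for Psme1 in untreated 2. No paired analysis was possible because the groups share no replicate numbers in the labels. The count of 0 members past the adjusted p held in every setting but weights per library, where 3 passed, with 2 genes of the partner lists and 940 of all tested symbols. Against 38 symbols as reported, all tested symbols gave 20 with no filter, 24 with shared rows kept and 84 with a robust variance prior. They gave 31 with median-ratio scaling, 10 rising and 21 falling. Leaving out a library gave 28 to 56 symbols, and 17 to 45 with median-ratio scaling. The causes of these differences were not tested.

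The median log2 fold change of the members, -0.60 as reported, was -0.18 with median-ratio scaling, -0.18 with that scaling and shared rows kept, and -0.20 with upper-quartile scaling, since scaling removes the shift of all symbols. It ran from -0.77 to -0.43 as each library was left out, and from -0.23 to -0.07 when scaling was added, with -0.071 reached without untreated 3. With median-ratio and upper-quartile scaling the log2 ratio of mean sums was -0.21 and -0.23 for the alpha ring, -0.093 and -0.11 for the beta ring, -0.089 and -0.11 for the base non-ATPases, -0.21 and -0.23 for the lid, -0.14 and -0.16 for the ATPases, -0.14 and -0.16 for the 20S core, and -0.16 and -0.17 for the 19S particle. As deposited these ran from -0.66 to -0.54 over the same parts.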
